A study of Homo sapiens with 12 samples.

Results

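Transcripts that report the output of the RAF-MEK-ERK kinase cascade, and that feed back on it, were followed in L-540 cells after givinostat, sorafenib or both. The set holds 10 genes: the ETS transcription factors ETV5 and ETV4, the zinc finger factor EGR1, the dual specificity phosphatases DUSP4, DUSP5 and DUSP6, the RAS-pathway inhibitors SPRY2, SPRED1 and SPRED2, and PHLDA1. The set was named with earlier results of these data known, and its probes were taken by symbol, as every probe whose platform gene symbol was one of these, which gave 14 of the 48803 probes on the array. Only 4 of the 10 genes, ETV5, PHLDA1, SPRED2 and DUSP5, were detected well enough to be tested, and they form part of the 8079 genes tested in all. ETV5 was detected on all 6 arrays of cells that had received givinostat and on 2 of the 6 arrays of cells that had not, and it was tested because of the groups in which it was high. In sorafenib alone against control no member passed the test unless the arrays were paired by letter. PHLDA1 then passed with all 4 groups paired, but not with the combination left out, whose letters did not all pair.

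In the cascade, active RAS recruits RAF kinases, RAF phosphorylates MEK, MEK phosphorylates ERK, and ERK enters the nucleus and raises the transcription of immediate early and delayed early genes. Several of these genes encode proteins that dampen the cascade again: DUSP phosphatases remove the activating phosphates from ERK, and Sprouty and SPRED proteins act upstream, at the level of RAS and RAF. Loss of such transcripts is widely used as a readout of RAF or MEK inhibition. Sorafenib is a multikinase inhibitor whose targets include RAF kinases and several receptor tyrosine kinases. Givinostat is an inhibitor of histone deacetylases, enzymes that remove acetyl groups from histones and other proteins.

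L-540 is an established line from Hodgkin lymphoma, so all values come from 1 line. It was exposed for 24 hours to no drug (control), to 100 nM givinostat, to 5 µM sorafenib, or to 100 nM givinostat with 5 µM sorafenib (the combination), and RNA of each of these 4 groups was hybridised to 3 Illumina bead arrays. The arrays of a group carry the letters A, B and C in the labels, which do not say whether they came from separate cultures. The p-values thus reflect how far these arrays scatter, and that scatter could be technical. The arrays measure RNA of a whole culture, so fewer cells that express a gene and less RNA per cell cannot be told apart.

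Median raw intensity was 418.1 to 579.3 on 11 arrays and 681.1 on combination B, where 22.4% of the probes were detected against 24.6% to 30.9% on the others. Combination B also lay farthest from its group mean, with a standard deviation of deviations across genes of 0.329 on the log2 scale, followed by combination A at 0.305 and the other 10 arrays at 0.237 to 0.277. Each combination result of the tested ERK genes is therefore also given without combination B. Of 10 Hodgkin cell markers, 7 were detected on all 12 arrays, among them TNFRSF8 (CD30), while CCL22 was detected on none. The 4 epithelial markers were detected on no array, and no B cell, fibroblast or endothelial marker was detected on all 12. Of the T cell markers, CD2 was detected on all 12 arrays and CD3D, CD3G and CD5 on none, and of the macrophage markers CSF1R was detected on all 12.

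A probe was taken as detected on an array at a detection p under 0.05, the chance of such a signal among the array's negative controls, and a gene was tested when a probe was detected on all 3 arrays of at least 1 group. By that rule 4 of the 10 ERK genes were tested, beside 42.9% of the 18852 genes with a named probe. DUSP5, PHLDA1 and SPRED2 were detected on all 12 arrays. DUSP5 had a raw intensity of 6532.8 to 17928.5, PHLDA1 of 2370 to 5547.3 and SPRED2 of 583.7 to 1083.2, and the raw intensity at the detection limit was 461 to 821.1 across the arrays. The tested ETV5 probe, with a raw intensity of 484.5 to 991.9, was detected on 8 arrays. It met the rule through givinostat and the combination, where it was high, so that its entry into the test was not independent of the differences reported for it. Its values without the filter are given for givinostat and the combination against control and for the combination against sorafenib. The block fits and the contrast averaged over the other drug were not run without the filter.

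The other 6 genes stayed at the detection limit. SPRY2, a Sprouty feedback inhibitor of receptor tyrosine kinase signalling, was detected on 0 of 12 arrays. EGR1, an immediate early factor, was detected on 1 array (givinostat B), and SPRED1 on 1 (sorafenib C). DUSP6, the cytoplasmic phosphatase specific for ERK, was detected on 1 array (givinostat B) by one of its probes and on 0 by the other. ETV4, the closest relative of ETV5 in the set, was detected on 1 array (combination B) by one probe and on 0 by the other. DUSP4, a nuclear phosphatase of ERK and other MAP kinases, was detected on 4 arrays (givinostat B and C, sorafenib B and combination A) by one probe and on 0 by the other. None of these detections was on a control array, and 3 of the 8 were on givinostat B. With all 18852 genes in the fit and no filter, the lowest limma adjusted p of these 6 genes over the 6 comparisons was 0.33 (SPRY2 in the combination against sorafenib). A fall of SPRY2, EGR1, SPRED1, DUSP6, ETV4 or DUSP4 under a RAF inhibitor was not detectable here, because the control arrays already gave no signal above the limit.

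**Figure D1:**
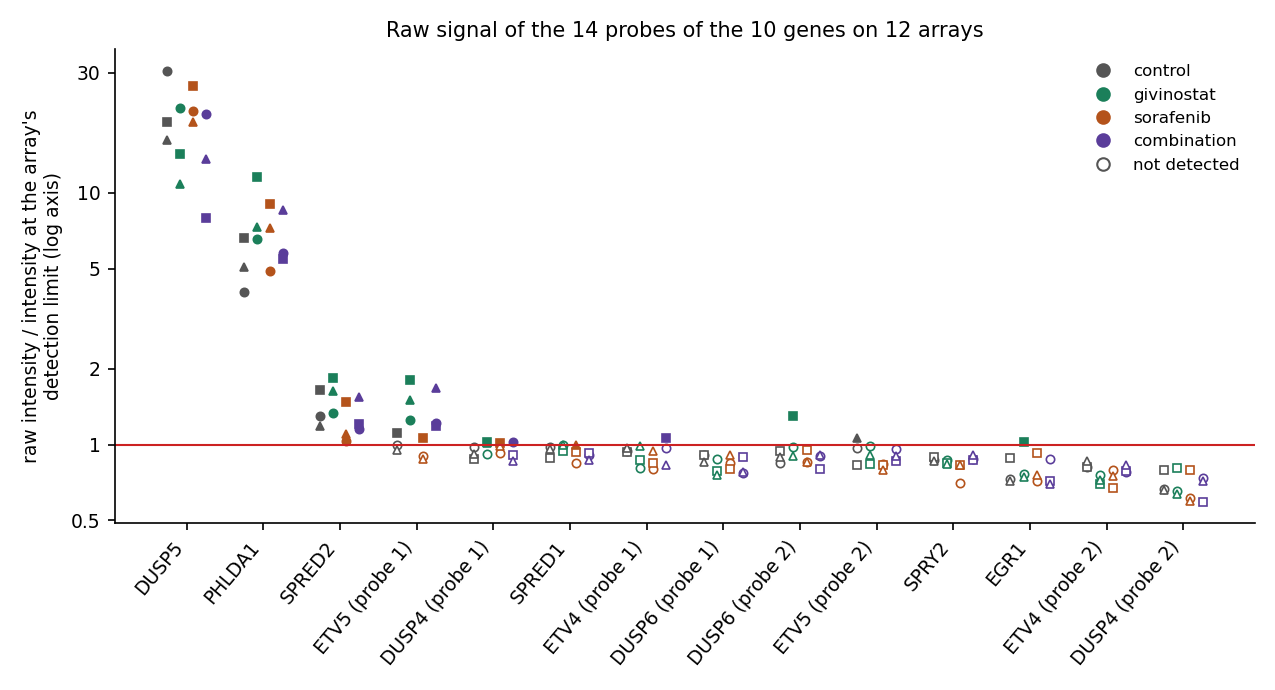
Raw intensity of the 14 probes of the 10 genes on each array, divided by that array's raw intensity at the detection limit, on a log axis. Each point is 1 array (circle A, square B, triangle C), open where not detected; DUSP5, PHLDA1 and SPRED2 lie above the limit on all 12 arrays, the first ETV5 probe on 8, and the other 10 probes on at most 4.

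The promoters of 3 of the genes are shown for a contrast: EGR1, the classical serum response gene, which was detected on 1 of 12 arrays, and PHLDA1 and SPRED2, which were detected on all 12. Promoters come from RefSeq (GRCh38.p14), each running from 250 bases before to 50 bases after the start site and written 5′ to 3′ on the gene's strand. Of the 10 genes, 6 matched the promoter table, with 9 promoters; ETV5, ETV4, DUSP5 and DUSP4 are named only. Capitals mark matches, on either strand, to GGAAG (the core of ETS sites), TGACG (the repeated part of a cyclic AMP response element) and the serum response element. In the EGR1 promoter 1 ETS match and the second serum response element overlap by 1 base, and in the SPRED2 promoter 1 ETS match ends 1 base before a TGACG match. EGR1 lies at chr5:138465229-138465528 on the plus strand, PHLDA1 at chr12:76031727-76032026 and SPRED2 (the first of 2 listed start sites) at chr2:65432550-65432849, both on the minus strand.
EGR1: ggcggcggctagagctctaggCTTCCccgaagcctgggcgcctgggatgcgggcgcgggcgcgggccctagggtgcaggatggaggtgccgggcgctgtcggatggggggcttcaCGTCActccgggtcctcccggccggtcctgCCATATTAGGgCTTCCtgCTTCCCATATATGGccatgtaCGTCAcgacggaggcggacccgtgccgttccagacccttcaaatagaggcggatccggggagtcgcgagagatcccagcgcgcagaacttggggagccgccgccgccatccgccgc
PHLDA1: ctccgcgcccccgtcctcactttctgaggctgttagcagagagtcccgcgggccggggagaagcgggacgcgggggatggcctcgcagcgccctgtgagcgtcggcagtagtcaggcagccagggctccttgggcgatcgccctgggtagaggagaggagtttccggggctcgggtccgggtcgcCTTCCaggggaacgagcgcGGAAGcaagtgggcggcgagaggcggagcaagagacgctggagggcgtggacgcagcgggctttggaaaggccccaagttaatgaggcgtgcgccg
SPRED2: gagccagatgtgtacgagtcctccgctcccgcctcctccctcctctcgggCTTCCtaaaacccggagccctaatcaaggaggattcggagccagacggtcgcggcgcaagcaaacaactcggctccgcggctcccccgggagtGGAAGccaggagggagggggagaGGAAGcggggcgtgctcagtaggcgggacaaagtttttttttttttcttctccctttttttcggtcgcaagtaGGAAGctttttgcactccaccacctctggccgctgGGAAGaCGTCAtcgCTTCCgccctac
GGAAG was found in 9 of the 9 member promoters and in 71.9% of all 35116 promoters of the same length, so it is common in promoters at large. The longer ETS motif CCGGAAG was found in 0 of the 9 and in 10.3% of all promoters. TGACG was found in 3 (the promoters of EGR1 and SPRED2 shown and 1 of SPRY2) against 24.6%, and the full element TGACGTCA in 0 against 1.85%. The serum response element was found in 1, that of EGR1, at 105 and 83 bases before the start site, against 1.29% of all promoters. The AP-1 motif TGANTCA was found in 1 (the second start site of SPRED2) against 7.71%, and the EGR motif GCGGGGGCG in 1 (SPRY2) against 5.07%. These matches describe the letters in the window and show no binding.

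Values below are normalized log2 intensities, which are comparable between arrays for 1 probe but not between probes. Changes are log2 differences of group means ± SE from limma's fit over all 12 arrays. A change was called at a Benjamini-Hochberg adjusted p under 0.05 over the 8079 genes.

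ETV5 encodes an ETS factor of the PEA3 group, whose transcript is induced by ERK and which in turn activates ERK-responsive genes. Its level was 6.78, 7.13 and 6.60 on control A, B and C, with B the array on which it was detected. It was 7.92, 8.65 and 8.77 on givinostat A, B and C, and 6.31, 6.88 and 6.11 on sorafenib A, B and C, again detected on B alone in sorafenib. On combination A, B and C it was 7.99, 8.54 and 8.83. The 6 arrays with givinostat lay above the 6 without it, whether sorafenib was present or not, and no array of one kind overlapped the other. Group means were 6.84 ± 0.27 in control, 8.45 ± 0.46 in givinostat, 6.43 ± 0.40 in sorafenib and 8.46 ± 0.43 in the combination (SD, n = 3 each). In this order of levels, sorafenib and control overlapped each other, as did givinostat and the combination.

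**Figure D2:**
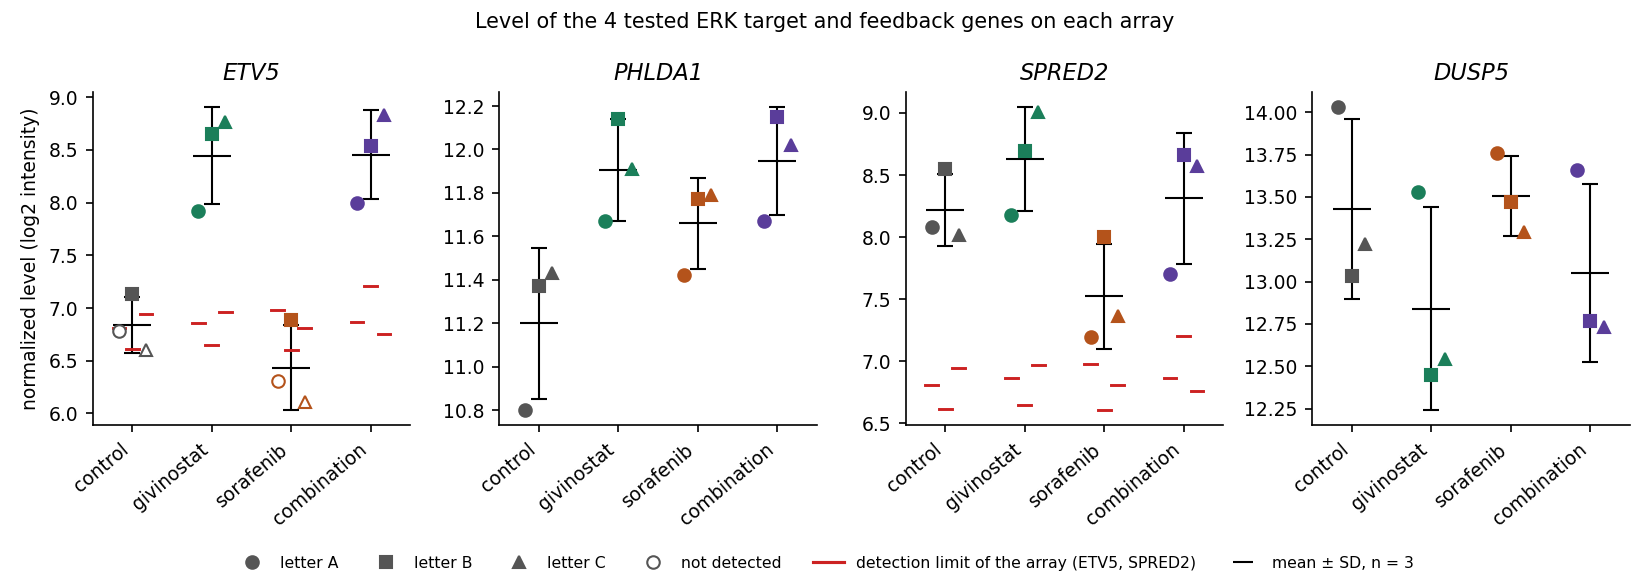
Normalized log2 level of ETV5, PHLDA1, SPRED2 and DUSP5 on each array by group, with the mean ± SD of 3 arrays; open symbols were not detected and red marks give each array's detection limit. ETV5 spans 7.92 to 8.83 on the 6 arrays with givinostat and 6.11 to 7.13 on the 6 without.

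Givinostat alone against control asks how histone deacetylase inhibition moved these transcripts. Of all 8079 genes 0.0743% were called higher and 0.0124% lower, and of the 4 tested ERK genes 0 were called, although 2, ETV5 and PHLDA1, had an unadjusted p under 0.05, as did 1042 of all genes. ETV5 differed by 1.61 ± 0.29 (95% interval 0.97 to 2.25, limma adjusted p = 0.0664). With the undetected control arrays set at their detection limit this is 2.80-fold, and with no filter (18852 genes) the limma adjusted p was 0.161. The size depended on the background step: the ETV5 difference was 0.53 with no background correction and 0.52 on the series matrix values. Arrays of the same letter deviated together in control, givinostat and sorafenib, and with the letter as a replicate block (combination arrays left out) 1.09% of all genes were called higher and 0.718% lower. In that fit 2 of the 4 ERK genes rose with givinostat: ETV5 by 1.61 ± 0.22 (limma adjusted p = 0.025) and PHLDA1 by 0.70 ± 0.12 (limma adjusted p = 0.0401). Within letters A, B and C the ETV5 difference was 1.14, 1.52 and 2.16. It was positive in every pair. The block fit was not run without the filter, which ETV5 passed through the groups in which it was high.

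PHLDA1 encodes a pleckstrin homology-like protein, induced by ERK and by other stimuli, that has been linked to apoptosis and to the restraint of receptor signalling. Its level was 10.8, 11.37 and 11.43 on control A, B and C, against 11.67, 12.14 and 11.91 on givinostat A, B and C. The lowest givinostat array thus stood above the highest control array. On sorafenib A, B and C PHLDA1 was at 11.42, 11.77 and 11.79, and on combination A, B and C at 11.67, 12.15 and 12.02. Control was the lowest group, and the A array was the lowest within each of the 4 groups. The difference between givinostat and control was 0.70 ± 0.21, or 1.63-fold (limma adjusted p = 0.199 without the block), and within letters A, B and C it was 0.868, 0.765 and 0.477. Neighbouring groups in the order control, sorafenib, givinostat and combination overlapped in their arrays.

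SPRED2, which recruits neurofibromin to RAS and so limits the activation of RAF, had levels of 8.08, 8.55 and 8.02 on control A, B and C. Givinostat A, B and C gave 8.18, 8.69 and 9.01. The givinostat arrays overlapped the control arrays, with a difference of 0.41 ± 0.31 (limma adjusted p = 0.634) that came mainly from letter C, where it was 0.994 against 0.101 in A and 0.144 in B. DUSP5, a nuclear phosphatase that binds and inactivates ERK, was detected on every array with a raw intensity far above the limit. Its level was 14.03, 13.03 and 13.22 on control A, B and C and 13.53, 12.45 and 12.54 on givinostat A, B and C. Each givinostat array was lower than the control array of its letter, by -0.497, -0.579 and -0.679 as givinostat minus control, while A was the highest array of both groups, so that the groups overlapped. The difference was -0.59 ± 0.35 (limma adjusted p = 0.529), and with the letter as a block -0.59 ± 0.17 (limma adjusted p = 0.113). The median change of the 4 tested genes was 0.56 and that of all genes 0.00 (-0.000273).

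**Figure D3:**
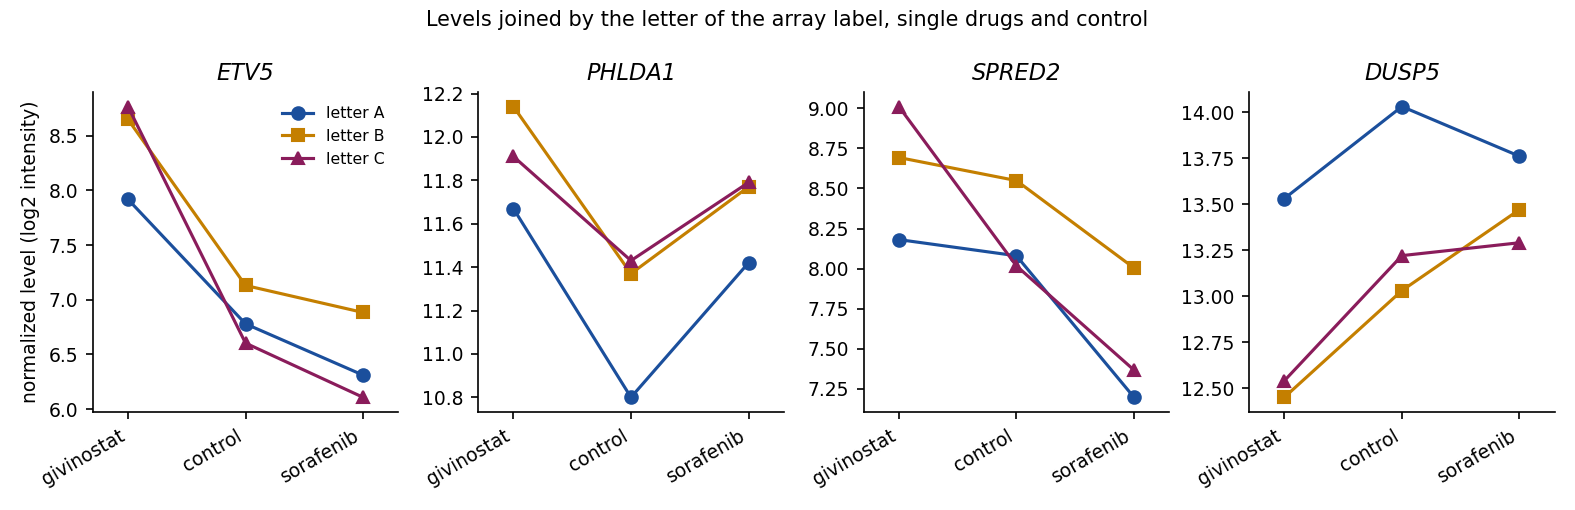
Normalized log2 level of the 4 tested genes in givinostat, control and sorafenib, with arrays of the same letter joined. ETV5 and PHLDA1 are higher in givinostat than in control for all 3 letters, DUSP5 is lower (-0.497 to -0.679), and SPRED2 is lower in sorafenib than in control for all 3.

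Sorafenib alone against control asks whether the ERK output genes fell with a RAF inhibitor. Of all genes 1.94% were called higher and 1.44% lower, and of the 4 tested ERK genes 0 were called, with SPRED2 and PHLDA1 at an unadjusted p under 0.05, as were 1608 of all genes. SPRED2 was at 7.20, 8.0 and 7.37 on sorafenib A, B and C, each below all of the control arrays. The difference was -0.69 ± 0.31, or 1.62-fold lower (limma adjusted p = 0.243). Within letters it was -0.884, -0.545 and -0.65, and with the letter as a block its limma adjusted p was 0.0764. PHLDA1 lay in the other direction, at 0.46 ± 0.21 (limma adjusted p = 0.247), with 0.62, 0.395 and 0.362 within letters A, B and C. It was called when the letter was a block over all 12 arrays (limma adjusted p = 0.0348) and not in the block without the combination (limma adjusted p = 0.0565), where 4.9% of all genes were called higher and 3.94% lower and 0 of the 4 members passed.

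ETV5 in sorafenib differed from control by -0.40 ± 0.29 (limma adjusted p = 0.486), and it was not detected on 2 of the 3 arrays of either group, so that a fall could hardly be measured. DUSP5 was at 13.76, 13.47 and 13.29 on sorafenib A, B and C and differed from control by 0.08 ± 0.35 (limma adjusted p = 0.931). The interval of that difference ran from -0.70 to 0.86, so neither a fall nor a rise of DUSP5 below those sizes can be set aside. Its sign was not the same in the 3 letters, at -0.271, 0.435 and 0.0708. The median change of the 4 genes was -0.16, and that of all genes 0.00 (0.000277).

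In the combination against control 4.02% of all genes were called higher and 2.97% lower, and of the 4 tested ERK genes 1 rose, 0 fell and 3 were not called. ETV5 rose by 1.62 ± 0.29 (limma adjusted p = 0.0106), 2.81-fold with the undetected control arrays at their limit, and by 1.57 ± 0.34 without combination B (limma adjusted p = 0.0367). With no detection filter, so that entry did not depend on the high groups, its limma adjusted p was 0.0271 over 18852 genes. Over the 24 other settings tried it passed in 23, the exception being array median scaling (limma adjusted p = 0.0526). The size of the ETV5 change depended on the processing, from 0.52 to 1.85 on the log2 scale over these settings. PHLDA1 was 0.75 ± 0.21 above control, or 1.68-fold (limma adjusted p = 0.0546), with no overlap between the arrays of the groups. It passed in 8 of 25 other settings, and without combination B it was at 0.64 ± 0.23 (limma adjusted p = 0.153).

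SPRED2 was at 7.70, 8.66 and 8.57 on combination A, B and C and overlapped control, with a difference of 0.10 ± 0.31 (limma adjusted p = 0.887), which was -0.08 ± 0.34 without combination B. DUSP5 was at 13.66, 12.77 and 12.73 on combination A, B and C, with a difference of -0.37 ± 0.35 (limma adjusted p = 0.559), and -0.23 ± 0.40 without combination B. In each of the 4 groups DUSP5 was higher on A than on B and C.

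The combination against each single drug asks what the second drug added. Against givinostat 0.953% of all genes were called higher and 0.73% lower, and 0 of the 4 ERK genes by limma, with 0 of them and 1605 of all genes at an unadjusted p under 0.05. ETV5 differed by 0.01 ± 0.29 (95% interval -0.63 to 0.65, limma adjusted p = 0.99), so the addition of sorafenib to givinostat left its level within that interval. PHLDA1 differed by 0.04 ± 0.21 (limma adjusted p = 0.938), DUSP5 by 0.21 ± 0.35 (limma adjusted p = 0.79) and SPRED2 by -0.32 ± 0.31 (limma adjusted p = 0.606). Without combination B these were -0.03, -0.06, 0.35 and -0.49 for ETV5, PHLDA1, DUSP5 and SPRED2, and none was called.

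Against sorafenib 0.186% of all genes were called higher and 0.173% lower, and of the 4 ERK genes 1 rose and 0 fell. ETV5 rose by 2.02 ± 0.29 (limma adjusted p = 0.0233), 2.96-fold with the 2 undetected sorafenib arrays at their limit, and ranked 8 among the 8079 genes by p-value. Over the other settings the difference ran from 0.63 to 2.25, and with no detection filter the limma adjusted p of ETV5 was 0.0381. This call depended on single arrays: the difference was 1.98 without combination B (limma adjusted p = 0.0962), and the limma adjusted p was 0.071 without sorafenib A, 0.0867 without sorafenib C and 0.0529 without combination C. No gene of the 8079 was called in this comparison once combination B was left out. SPRED2 was higher by 0.79 ± 0.31 (limma adjusted p = 0.256) and PHLDA1 by 0.29 ± 0.21 (limma adjusted p = 0.546), and DUSP5 differed by -0.45 ± 0.35 (limma adjusted p = 0.584). Without combination B these 3 were at 0.61, 0.18 and -0.31.

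**Figure D4:**
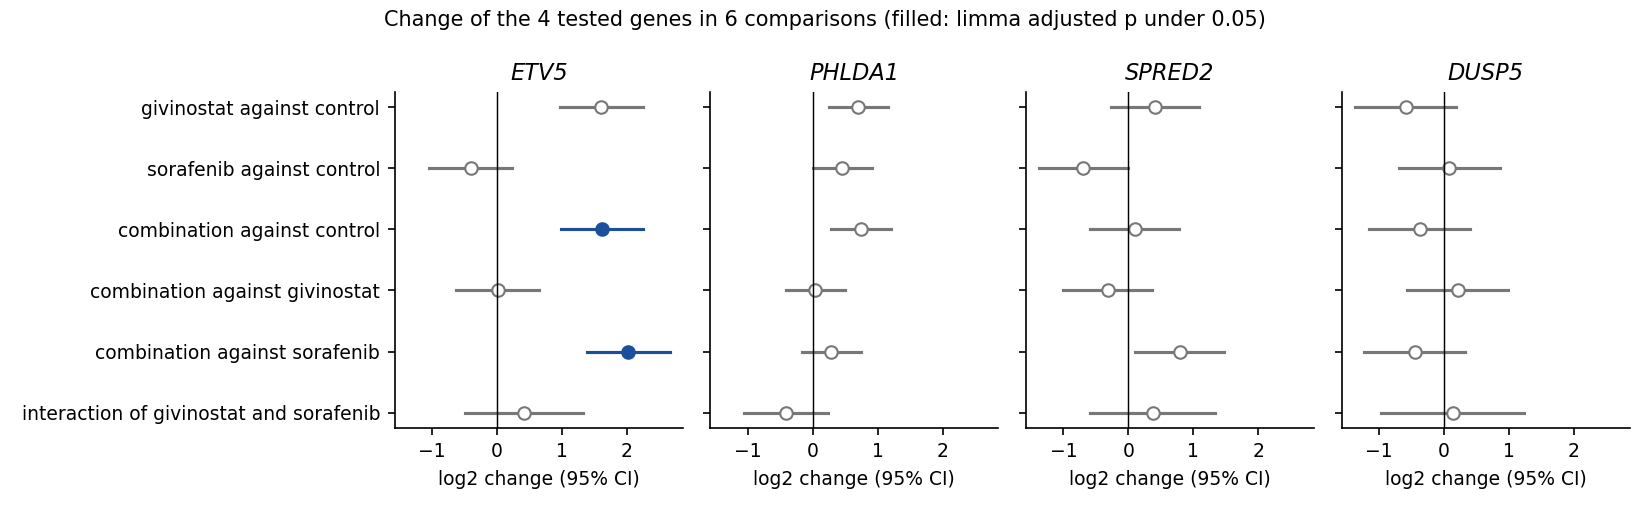
Log2 change of ETV5, PHLDA1, SPRED2 and DUSP5 in 6 comparisons, with 95% intervals from limma; filled points were called. ETV5 was called in the combination against control (1.62) and against sorafenib (2.02).

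The interaction term, the combination minus both single-drug changes, tests whether the effect of one drug differed with the other present. It was called for 0% of all genes in the higher direction and 0% in the lower direction, and for 0 of the 4 ERK genes by limma, with 0 of these and 473 of all genes at an unadjusted p under 0.05. It was 0.41 ± 0.41 for ETV5, 0.38 ± 0.44 for SPRED2, 0.13 ± 0.50 for DUSP5 and -0.42 ± 0.29 for PHLDA1, with limma adjusted p-values of 0.929, 0.942, 0.991 and 0.898. All 4 of their 95% intervals included 0. Without combination B they were 0.37, 0.20, 0.27 and -0.52 for ETV5, SPRED2, DUSP5 and PHLDA1, and none was called.

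Each drug's effect was also averaged over the absence and presence of the other drug, a contrast chosen after the values were seen. For givinostat, 2.18% of all genes were called higher and 1.35% lower on 6 arrays with against 6 without the drug, and 1 of the 4 ERK genes rose. ETV5 rose by 1.81 ± 0.21 on the measured values (limma adjusted p = 0.00301), with no fold given because 4 of the 6 arrays without givinostat were not detected. That contrast was set with the ETV5 pattern already seen and is a description of it. PHLDA1 was at 0.50 ± 0.15 (limma adjusted p = 0.0863), SPRED2 at 0.60 ± 0.22 (limma adjusted p = 0.151) and DUSP5 at -0.52 ± 0.25 (limma adjusted p = 0.275). For sorafenib, 6.62% were called higher and 5.27% lower and 0 of the 4 ERK genes. SPRED2 had the lowest value there, at -0.51 ± 0.22 (limma adjusted p = 0.157), and ETV5 was at -0.20 ± 0.21 (limma adjusted p = 0.569).

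ETV5 has a second probe on the array, and it did not repeat the pattern. It was detected on 1 of 12 arrays (control C), and its group means were 6.57 ± 0.83 in control, 6.32 ± 0.49 in givinostat, 5.80 ± 0.16 in sorafenib and 6.37 ± 0.23 in the combination (SD, n = 3 each). The rise of ETV5 therefore rests on 1 probe, and which transcripts the probes read was not tested.

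The genes whose levels ran most like a member's over the 12 arrays were found by Pearson's r, given as a description, since the arrays share their groups and letters. For ETV5 they were ANKRD22 (0.981), ITGB1, the integrin beta-1 subunit (0.98), and RAPH1 (0.978). For PHLDA1 they were EVA1A (0.96), ATXN1-AS1 (0.938) and CYP4V2 (0.936). For SPRED2 they were SETBP1 (0.955), the actin cross-linker ACTN4 (0.918) and the complement factor I gene CFI (0.915). For DUSP5 they were NFKB2, a subunit of NF-kB (0.947), PBX4 (0.946) and TNFSF12 (0.942).

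The cascade itself was examined through lists of its other genes. Of 20 core genes from RAS to the kinases downstream of ERK, 15 had a probe and 14 were tested, HRAS, ARAF, MAP2K1, MAP2K2 and MAPK3 among them. By limma 0 of the 14 were called in any of the 6 comparisons, where 0% to 4.02% of all genes were called higher and 0% to 2.97% lower. The count of 0 is thus near the share over the array. The median change of the 14 was -0.04 in givinostat, -0.05 in sorafenib and -0.03 in the combination against control, beside 0.00 (-0.000273), 0.00 (0.000277) and -0.02 for all genes. With the letter as a block 1 of them fell in sorafenib: MAP2K1, which encodes MEK1 (log2 change -0.45 ± 0.11, limma adjusted p = 0.0493). In that fit 3.94% of all genes were called lower and 4.9% higher, so 1 of 14 is near the share over the array. MAP2K1 was at 11.06, 10.88 and 10.88 on control A, B and C and at 10.64, 10.45 and 10.38 on sorafenib A, B and C. The sorafenib arrays thus lay below every control array, within a narrow range.

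Of 16 adaptors and RAS regulators 11 were tested. RASGRP2, an exchange factor for small GTPases of the RAS family that responds to calcium, rose in sorafenib by 1.12 ± 0.26, or 2.17-fold (limma adjusted p = 0.0449), and 0 fell. Its level was 7.63, 7.69 and 7.34 on control A, B and C, against 8.48, 8.68 and 8.86 on sorafenib A, B and C. It kept the call in 13 of 26 other settings, the average over the other drug among them. The change of RASGRP2 was 0.43 with no background correction and 0.42 on the series matrix values. In the combination RASGRP2 was at 8.40, 7.23 and 8.05 on A, B and C, with B as low as the control arrays. On combination B that is close to the array's detection limit of 7.21. The list's median change in sorafenib was -0.03, and 1.94% of all genes were called higher and 1.44% lower there.

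Of the 10 receptor kinases in the list of sorafenib's receptor targets, 1 was tested: CSF1R, the receptor of macrophage colony-stimulating factor. KIT, PDGFRB, KDR, FLT1 and FGFR1 were detected on none of the 12 arrays. CSF1R differed from control by 0.42 ± 0.18 in sorafenib (limma adjusted p = 0.228) and by 0.40 ± 0.18 in the combination (limma adjusted p = 0.212).

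Other ERK-inducible transcripts beyond the 10 genes moved in both directions. Of 26 genes 25 had a probe and 12 were tested, while FOS, CCND1, MAFF and EPHA2 were detected on none of the 12 arrays. In the combination against control 2 of the 12 rose, TRIB1 and IER5, 1 fell, FOSL1, and 9 were not called, with a list median of -0.21. Beside them 4.02% of all genes were called higher and 2.97% lower. FOSL1, an AP-1 subunit whose transcript and protein depend on ERK in many cells, was at 8.17, 8.14 and 7.43 on control A, B and C. On combination A, B and C it was at 6.54, 5.82 and 6.56, detected on none. With those arrays at their limit FOSL1 was 1.96-fold lower (log2 change -1.61 ± 0.30 on the measured values, limma adjusted p = 0.0122). The size depended on the background step: the log2 change was -0.47 with no background correction and -0.46 on the series matrix values. FOSL1 was called in 22 of 24 other settings, including without combination B (log2 change -1.37 ± 0.30, limma adjusted p = 0.0401). The strict filter, a detection p under 0.01 on all 12 arrays, removes FOSL1 and is not among the 24. FOSL1 met the detection rule through control and sorafenib, where it was higher, so its entry was not independent of this difference. With no filter its limma adjusted p was 0.0313.

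All 9 treated arrays of FOSL1 lay below the 3 control arrays. It was at 7.06, 6.07 and 6.61 on givinostat A, B and C, detected on A alone, and at 7.33, 7.19 and 6.85 on sorafenib A, B and C, detected on all 3. Givinostat against control gave -1.33 ± 0.30 (limma adjusted p = 0.117), and with the letter as a block FOSL1 fell (-1.33 ± 0.23, limma adjusted p = 0.0419), 2.03-fold with undetected arrays at their limit. It is 1 of the 12 that fell in that block fit, and 0 rose, beside 0.718% of all genes lower and 1.09% higher. Sorafenib against control gave -0.79 ± 0.30 (limma adjusted p = 0.173).

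TRIB1, a pseudokinase that acts as a scaffold for MEK1 and for the ubiquitin ligase COP1, rose in the combination by 1.19 ± 0.31, or 2.27-fold (limma adjusted p = 0.0443). Its level was 9.95, 10.79 and 10.77 on control A, B and C and 11.11, 12.01 and 11.94 on combination A, B and C. Givinostat alone and sorafenib alone lay between, at 0.56 ± 0.31 (limma adjusted p = 0.479) and 0.45 ± 0.31 (limma adjusted p = 0.463) above control. IER5, an immediate early gene, rose by 0.42 ± 0.11, or 1.33-fold (limma adjusted p = 0.0491), and kept the call in 7 of 25 other settings. TRIB1 kept it in 13 of 25. Without combination B neither was called.

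In sorafenib alone 0 of these 12 transcripts were called by limma without the block, and their median change was -0.26. With the letter as a block 3 of the 12 fell and 0 rose, IER3, JUNB and HBEGF, beside 3.94% of all genes lower and 4.9% higher. IER3, an immediate early gene and ERK substrate, was at 13.49, 12.68 and 12.79 on control A, B and C and at 12.65, 11.05 and 11.02 on sorafenib A, B and C. The A arrays of both groups stood above B and C, so that sorafenib A lay just below control B. Sorafenib was lower in each pair, by -0.841, -1.63 and -1.77 as sorafenib minus control, and the change was -1.41 ± 0.22, or 2.66-fold lower (limma adjusted p = 0.0177, and 0.0981 without the block). JUNB, an AP-1 subunit, fell 1.86-fold (log2 change -0.90 ± 0.13, limma adjusted p = 0.0163, and 0.344 without the block). HBEGF, the heparin-binding ligand of the EGF receptor, fell to a level 2-fold lower (log2 change -1.0 ± 0.17, limma adjusted p = 0.0193, and 0.251 without the block).

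In all 3 genes the A arrays of control, givinostat, sorafenib and the combination were high, apart from HBEGF in the combination, where A and C were close and B was not detected. Within letters A, B and C, JUNB differed by -0.677, -1.06 and -0.953 and HBEGF by -1.30, -0.926 and -0.771 between sorafenib and control. In the combination against control IER3 was at -1.37 ± 0.42, JUNB at -1.25 ± 0.49 and HBEGF at -0.94 ± 0.46, with limma adjusted p-values of 0.0779, 0.144 and 0.235. In givinostat against control they were at -0.15 ± 0.42, -0.39 ± 0.49 and -0.24 ± 0.46, with limma adjusted p-values of 0.932, 0.799 and 0.883. MYC and DUSP1, a further feedback phosphatase, were near control in sorafenib, at -0.07 ± 0.14 (limma adjusted p = 0.828) and 0.07 ± 0.25 (limma adjusted p = 0.914).

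**Figure D5:**
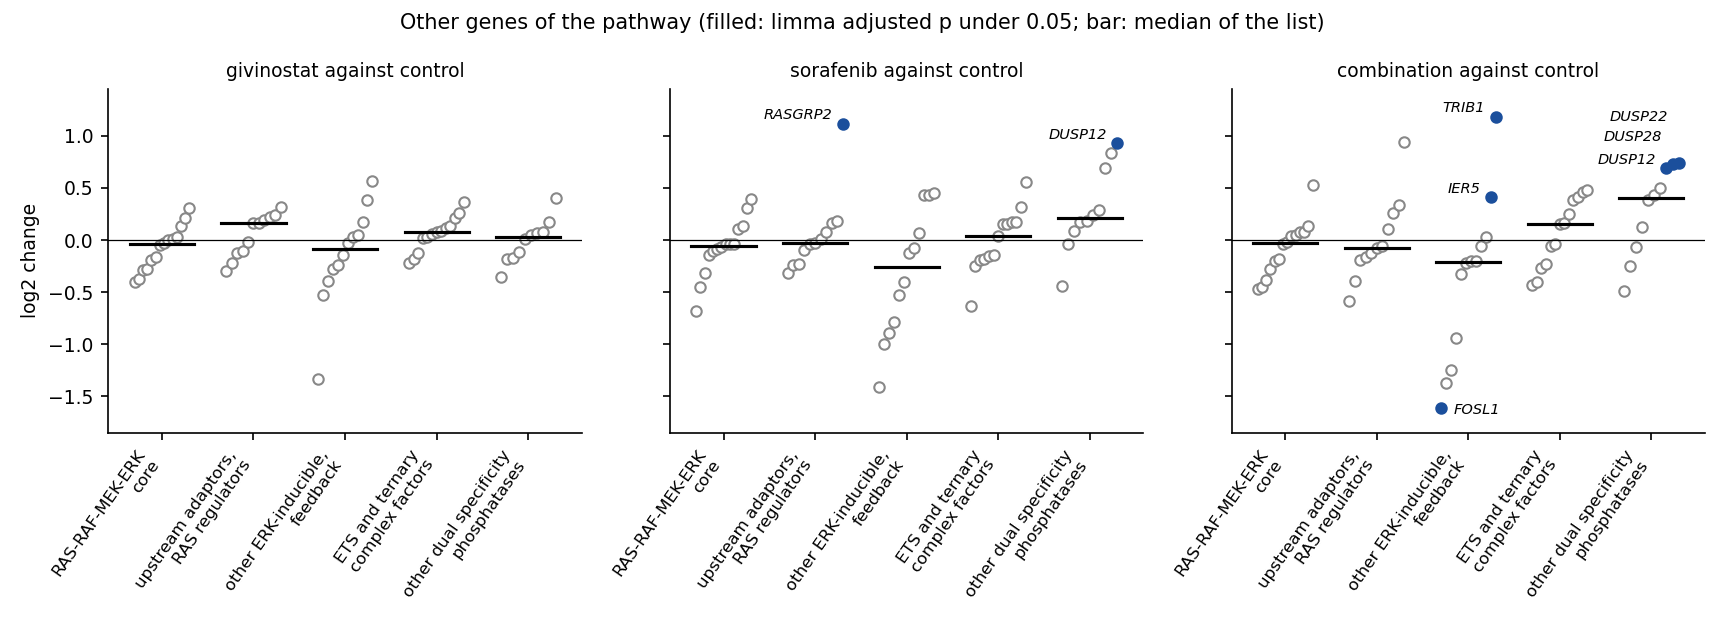
Log2 change of every tested gene of 5 pathway lists in each treated group against control; filled and named genes were called by limma without the block, and bars are list medians. FOSL1 (-1.61) and TRIB1 (1.19) are the lowest and highest ERK-inducible genes in the combination.

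Among 18 other ETS and ternary complex factors 13 were tested, and 0 were called in any of the 6 comparisons by limma without the block, with medians of 0.08, 0.04 and 0.16 in givinostat, sorafenib and the combination against control. Of all genes 0% to 4.02% were called higher and 0% to 2.97% lower in these comparisons, so 0 of 13 is near the share over the array. ETV1, the third member of the PEA3 group beside ETV4 and ETV5, was detected on none of the 12 arrays, nor were SPI1 and SPIB. ETS1, a factor abundant in lymphocytes, was at 13.51, 13.36 and 13.3 on control A, B and C and at 14.19, 13.84 and 13.8 on sorafenib A, B and C. All of its sorafenib arrays lay above the control arrays, and with the letter as a block it rose by 0.56 ± 0.11 (limma adjusted p = 0.0306, and 0.114 without the block). It was 1 of the 13 called higher in that fit, near the 4.9% of all genes.

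Of 13 other dual specificity phosphatases 10 were tested. In sorafenib 1 rose and 0 fell: DUSP12, an atypical phosphatase outside the MAP kinase phosphatase group, by 0.93 ± 0.18, or 1.91-fold (limma adjusted p = 0.0254). In the combination 3 rose and 0 fell, and all 3 are atypical phosphatases: DUSP12 by 0.69 (limma adjusted p = 0.0432), DUSP22 by 0.74 (limma adjusted p = 0.0285) and DUSP28 by 0.73 (limma adjusted p = 0.0256). The list's median change was 0.41 in the combination and 0.21 in sorafenib. Of all genes 4.02% were called higher and 2.97% lower in the combination, and 1.94% higher and 1.44% lower in sorafenib. DUSP12 kept its call in sorafenib in 19 of 27 other settings, the average over the other drug among them. In the combination DUSP12 kept it in 13 of 25, and DUSP22 and DUSP28 each in 18 of 25. With array median scaling the combination changes were 0.38 for DUSP12, 0.41 for DUSP22 and 0.41 for DUSP28, and none was called. Without combination B none of the 3 was called in the combination. The 3 are not known as feedback targets of ERK, in contrast to DUSP4, DUSP5 and DUSP6.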

How the data were processed

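Per the labels' protocols, total RNA was labelled as biotinylated cRNA, and per the submitters' processing notes the tool was BeadStudio, with no version given. The deposited table holds raw bead intensity values on a linear scale and, per array, a fraction that its header calls a detection p-value. The fraction rose with intensity on all 12 arrays and so 1 minus it was used as the detection p. The series matrix, as deposited, has intensity values that were quantile normalized, read from its columns, which differ at equal rank by at most 0.276%. Its method is not given in the sources used here.

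From the raw values, neqc (limma 3.58.1, R 4.3.3, offset 16) removed background and made log2 values by quantile normalization. The filter asked for a detection p under 0.05 on every array of 1 group or more, which 11801 probes met. Symbols came from the platform annotation, which can be old: 28098 probes had 1 symbol, 13 several and 20692 none listed. The brightest probe per gene gave 8079 genes. limma's lmFit and eBayes were fitted over 12 arrays with 1 coefficient per group (8 residual degrees of freedom), with Benjamini-Hochberg adjustment over all 8079 genes, after a run on simulated data. The number of arrays limits the precision. In folds, undetected arrays stand at their own detection limit.

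The 10 members, the pathway lists and the tests were chosen with earlier results of these data known. All members are named, and from the lists the genes called without or with the block, with MYC, DUSP1 and CSF1R and the genes detected on no array added after their values were seen. Likeness was Pearson's r over the 12 arrays, with 3 genes per member.

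Letters were checked for pairing by correlating arrays' deviations from their group means across genes. All 9 same-letter correlations between control, givinostat and sorafenib lay between 0.177 and 0.408, so the letters were taken to pair these arrays. The labels do not state this pairing. With the combination they ran from -0.139 to 0.363, and the combination was left out of the block. Combination A correlated with A of control, givinostat and sorafenib at 0.31, 0.363 and 0.321, whereas combination B and C ran from -0.139 to 0.135. Alternatives covered the background, the normalization, the offset, the filters, the probes, the arrays, the block, the samples in the fit, a robust fit and array weights. Promoters were searched in the RefSeq table with Python 3.11.15.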

Additional observations from a re-analysis of the deposited data

How the results depend on the processing

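Taking the letter as replicate block, the ERK genes called in givinostat against control went from 0 to 2 (ETV5 and PHLDA1), with or without the combination arrays, and over all 12 arrays those called in sorafenib against control went from 0 to 1 (PHLDA1) and in the combination against control from 1 to 2. Over all genes the same 12-array block took the calls from 7 to 166, from 273 to 706 and from 565 to 1068 in these 3 comparisons. In givinostat against control 1 was called with no background correction, array median scaling, cyclic loess, the series matrix values or array weights, and 0 to 1 when an array was left out. The average over the other drug, a different contrast, also gave 1. Calls over all genes rose too, from 7 to 74 with no background correction, 14 with array median scaling, 18 with cyclic loess and 76 on the series matrix values. They ran from 0 to 21 when an array was left out. In the combination against control 2 of the ERK genes were called with a background model from the intensities alone, no background correction, cyclic loess, the series matrix values, an offset of 50 or array weights, and 0 with array median scaling. In the combination against sorafenib 0 were called under the strict filter (every array at a detection p under 0.01), which removes ETV5, and with only the groups compared in the fit, and 0 to 1 when an array was left out. No setting changed the count of 0 in the combination against givinostat or in the interaction. The range of calls over all genes in each comparison is given below.

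Array median scaling put the median of all genes at -0.29 in the combination against control, -0.39 against givinostat, -0.32 against sorafenib and -0.42 in the interaction. In the fit reported above that median was -0.02 in each of these. With array median scaling 7 changes that had not been called took the opposite sign. Relative to the median of all genes under that scaling all 7 kept their sign (ETV5 0.02, DUSP5 0.21 and PHLDA1 0.03 in the combination against givinostat, and SPRED2 0.12 against control). Unadjusted for it, the 7 were as follows. In the combination against givinostat they were -0.37 for ETV5, -0.18 for DUSP5 and -0.36 for PHLDA1. PHLDA1 in the combination against sorafenib was -0.030, SPRED2 in the combination against control -0.17, and the interaction -0.23 for DUSP5 and -0.098 for SPRED2. Cyclic loess gave -0.078 for ETV5 in the combination against givinostat. Leaving out 1 array gave ranges across 0 for DUSP5 in sorafenib (-0.12 to 0.38), SPRED2 in the combination against control (-0.080 to 0.40), ETV5 (-0.25 to 0.24), PHLDA1 (-0.076 to 0.18) and DUSP5 (-0.091 to 0.56) in the combination against givinostat, and DUSP5 in the interaction (-0.17 to 0.48). None of these was called in any setting. The genes called over all settings ranged from 0 to 285 in givinostat (7 as reported), 24 to 961 in sorafenib (273), 96 to 1068 in the combination against control (565), 5 to 590 against givinostat (136) and 0 to 175 against sorafenib (29). The upper ends of 285 and 961 came from the average over the other drug. That is a different contrast, which includes the combination arrays, so these 2 ends do not reflect processing alone. The cause of these differences was not tested. Most members lie at the detection limit, which limits what can be seen of them.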
